A study of Mus musculus with 9 samples.

Results

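Nr5a1, Fezf1, Adcyap1 and Bdnf are genes by which the ventromedial nucleus of the hypothalamus (VMH) is commonly recognised, and their expression was measured in 9 laser-captured hypothalamic regions. They were found by matching their symbols to Ensembl identifiers, and all 4 had an entry among the 13588 of the deposited table. Nr5a1 and Fezf1, which mark the VMH most narrowly, were absent or nearly absent from 4 of the 9 regions, among them every region numbered 3. No member passed the test between AAV-Cre and AAV-GFP mice. Bdnf was lower in each of the 6 AAV-Cre regions than in each of the 3 AAV-GFP regions, as were 1.08% of all entries tested.

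The mice were males of strain C57/BL6, homozygous for a floxed Snord116 allele (Snord116tm1Uta/J), which the controls carried too. At 10 to 12 weeks of age they received bilateral injections into the mediobasal hypothalamus of AAV7 with Cre under the CAG promoter (6 mice) or AAV7 with GFP under the CMV promoter (3 mice), and brains were frozen 10 weeks later. The Cre vector was also given at a higher titre than the GFP vector, so vector dose and treatment cannot be told apart. Cre removes the Snord116 snoRNA cluster, which lies within the minimal region implicated in Prader-Willi syndrome, but only in transduced cells, and neither promoter is restricted to a cell type. Each region was cut from a single section, guided by Cre staining of neighbouring sections or matched to such regions in AAV-GFP mice, and a region is 1 mouse and 1 library. The AAV-Cre mice are divided by body weight into subsets of 3, on which the labels contradict each other. Those titled Creobese have Non-obese as weight label, and those titled Cre have Obese. The subsets are named here by the weight label, as labelled Obese and labelled Non-obese, and every direction drawn between them depends on that label. The numbers 1 to 3 come from the titles, and mice with the same number in different groups are different animals.

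The VMH is a cluster of mostly glutamatergic neurons beside the third ventricle that takes part in energy balance, glucose regulation and defensive behaviour. It lies above the arcuate nucleus, with its Pomc and Agrp neurons, and below the dorsomedial nucleus, so a captured region can hold more or less of it. Nr5a1 encodes steroidogenic factor 1 (SF-1), a nuclear receptor needed to form the nucleus and in the brain nearly restricted to it. Fezf1 encodes a zinc finger transcription factor expressed in the same cells. Adcyap1 encodes the neuropeptide PACAP, and Bdnf encodes brain-derived neurotrophic factor, and both are abundant in the VMH but are made elsewhere in the brain as well.

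In GRCm38, Nr5a1 (ENSMUSG00000026751) is at chr2:38692656-38714542 on the minus strand and Fezf1 (ENSMUSG00000029697) at chr6:23245044-23248362 on the minus strand. Adcyap1 (ENSMUSG00000024256) is at chr17:93199017-93206537 and Bdnf (ENSMUSG00000048482) at chr2:109674700-109727007, both on the plus strand. RefSeq promoter sequences (GRCm38.p6) were matched for 3 of the 4 members, with 1 promoter of Fezf1, 2 of Adcyap1 and 7 of Bdnf. Within the 250 bases before each start, the core of the cAMP response element, TGACG on either strand, was present in both Adcyap1 promoters, which overlap and share the same match, and in 1 of the 7 Bdnf promoters. It was present in 17.8% of the 32851 promoters of the same length. The SF-1 binding motif AAGGTCA, on either strand, was in none of the 10 member promoters and in 4.08% of all. The stretches below show the start regions of the members that could be matched, with the TGACG core in capitals (CGTCA where it lies on the other strand). They cover chr6:23248363-23248514 on the minus strand for Fezf1, up to its annotated first exon, chr17:93198767-93199016 for Adcyap1 and chr2:109692186-109692435 for the Bdnf promoter with the match, which begins 35 bases before the start.
Fezf1: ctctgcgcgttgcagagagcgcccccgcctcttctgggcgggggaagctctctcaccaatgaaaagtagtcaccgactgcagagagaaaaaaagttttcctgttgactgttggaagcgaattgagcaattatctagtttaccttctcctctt
Adcyap1: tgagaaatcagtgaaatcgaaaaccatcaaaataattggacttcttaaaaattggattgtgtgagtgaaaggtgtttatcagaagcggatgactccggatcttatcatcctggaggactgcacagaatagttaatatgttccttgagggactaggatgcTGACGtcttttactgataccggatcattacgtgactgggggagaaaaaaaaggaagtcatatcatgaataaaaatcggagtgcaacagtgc
Bdnf: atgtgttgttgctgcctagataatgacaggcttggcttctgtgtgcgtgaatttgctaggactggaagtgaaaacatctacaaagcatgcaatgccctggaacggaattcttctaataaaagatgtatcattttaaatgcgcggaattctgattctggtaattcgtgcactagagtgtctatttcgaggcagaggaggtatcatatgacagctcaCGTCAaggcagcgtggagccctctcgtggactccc
The core is printed as a description of the letters, and the reads were counted per gene, so no value belongs to a single promoter.

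Values are given as signal, the authors' CPM after scaling of library sizes, and as the reads recovered from it. Libraries held between 3929672 and 5766994 reads, and 3 reads, taken as the floor, correspond to a signal between 0.525 and 0.786. Intervals and floors cover counting error only. The vectors matched the labels, since Cre had 1011 to 37704 reads in AAV-Cre libraries and 0 to 5 in AAV-GFP libraries, and Gfp had 317 to 350 reads in AAV-GFP libraries and 0 in AAV-Cre libraries. Libraries 1 and 3 labelled Obese stood apart from the others. The summed signal of 4 leukocyte markers (Ptprc, Cd3e, Cd8a, Itgal) was 144 and 112 in them and between 1.92 and 10.1 in the other 7, and that of 5 microglial markers was 326 and 273 against 72.8 to 109. Their summed signal of 5 neuronal markers was the lowest, at 1538 and 1487 against 1834 to 2198, and their Cre reads were also the lowest of the AAV-Cre libraries, at 5912 and 1011 against at least 19611.

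Nr5a1 was either clearly present or not detected. In AAV-GFP libraries 1, 2 and 3 it had 141, 177 and 0 reads, or a signal of 35.2, 33.9 and 0. In the libraries labelled Obese it had 0, 203 and 0 reads, or a signal of 0, 46.1 and 0. In those labelled Non-obese it had 87, 62 and 0 reads, or a signal of 15.2, 16.2 and 0. The 0 values therefore occurred in every group, in library 3 of each and in library 1 labelled Obese, and the 5 other libraries lay between 15.2 and 46.1. In the 4 libraries without a read, the upper 95% Poisson limit of the signal was between 0.716 and 0.857. Of the 13506 entries tested, 153 (1.13%) were at 0 reads in at least 4 libraries, and only Krt9, a keratin gene, was at 0 in the same 4 libraries and no others. No entry of the deposited table had fewer than 50 reads in total, and those tested reached a signal of 1 in 3 or more libraries. Scarcer genes are therefore missing from this share.

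Fezf1 had the same gaps with a few reads in them. It had 194, 205 and 0 reads in AAV-GFP libraries 1, 2 and 3, a signal of 48.4, 39.3 and 0. In the libraries labelled Obese it had 9, 219 and 2 reads, a signal of 2.02, 49.7 and 0.465. In those labelled Non-obese it had 69, 201 and 17 reads, a signal of 12.1, 52.6 and 3.63. Every library numbered 2 was high, at 39.3 or above, and every library numbered 3 was at 3.63 or below. The 4 libraries with no Nr5a1 read were the 4 lowest for Fezf1.

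**Figure D1:**
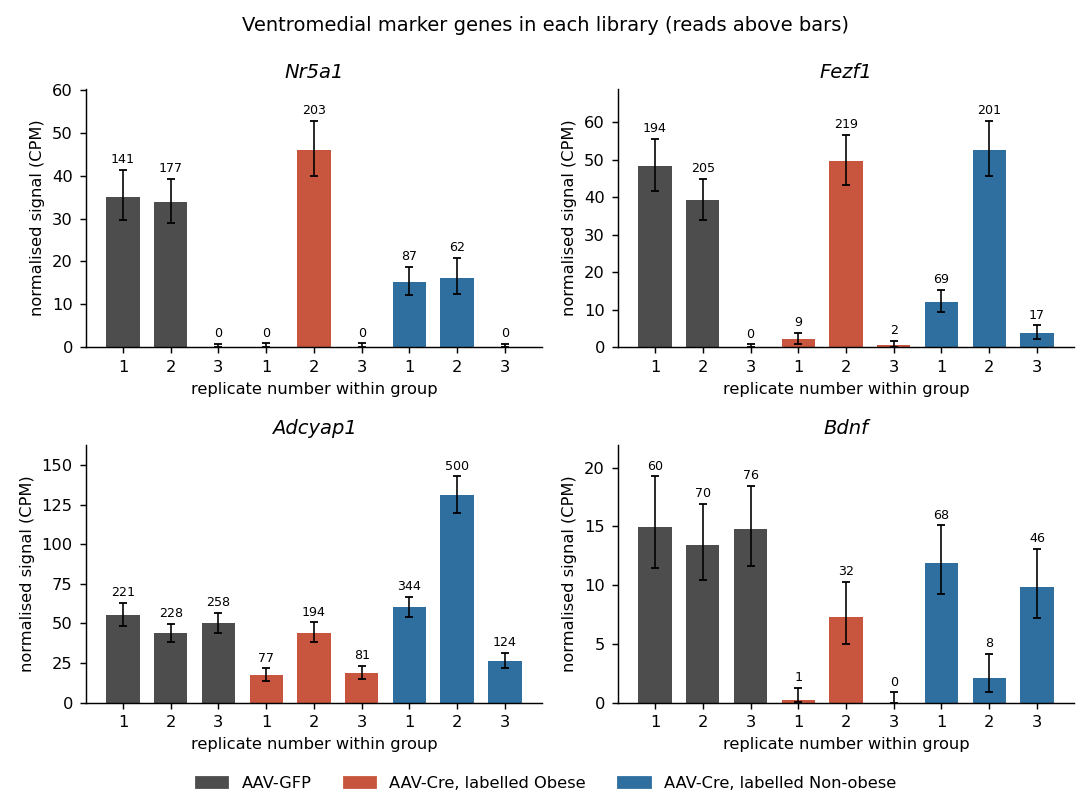
Bars give the normalised signal (CPM scale, linear axis from 0) of each member in each of the 9 libraries, coloured by group and ordered by replicate number. Error bars are exact 95% Poisson intervals, and the numbers above them are reads. Nr5a1 is at 0 in library 3 of each group, whereas Adcyap1 is present in every library and Bdnf is highest in the 3 AAV-GFP libraries.

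Adcyap1 was detected in every library. In AAV-GFP mice its signal was 55.1, 43.7 and 50.1 in libraries 1, 2 and 3. In mice labelled Obese it was 17.3, 44.0 and 18.8, and in those labelled Non-obese 60.2, 131 and 26.5. The AAV-GFP values lay close together, at 49.6 ± 5.74 (SD, n = 3), and those labelled Non-obese were widely spread, at 72.5 ± 53.3 (SD, n = 3). Libraries 1 and 3 labelled Obese were the lowest of all 9, and library 2 labelled Non-obese the highest.

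Bdnf was the scarcest member and the one with the narrowest control range. It had 60, 70 and 76 reads in AAV-GFP libraries 1, 2 and 3, a signal of 15.0, 13.4 and 14.8. In the libraries labelled Obese it had 1, 32 and 0 reads, a signal of 0.225, 7.26 and 0. In those labelled Non-obese it had 68, 8 and 46 reads, a signal of 11.9, 2.10 and 9.82. The lowest AAV-GFP library was thus above the highest AAV-Cre library, a separation found in 1.08% of entries. At that edge, the 95% Poisson intervals of AAV-GFP library 2 (10.4 to 16.9) and library 1 labelled Non-obese (9.24 to 15.1) overlapped. Libraries 1 and 3 labelled Obese were at or under 1 read. Gm45346, an antisense gene without an entry of its own, shares 896 exonic bases with Bdnf and 12.7% of the 50-base windows of its transcripts. The kit is stranded, but the strand setting of the counting is not given in the sources used here, so reads of the antisense gene cannot be told apart from those of Bdnf. No window of the other members is shared with another gene.

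Per kilobase of exonic sequence, the mean signal in AAV-GFP libraries was 13.1 ± 1.52 for Adcyap1, 12.1 ± 10.7 for Fezf1, 5.43 ± 4.70 for Nr5a1 and 2.31 ± 0.136 for Bdnf (SD, n = 3). Neighbours in this order did not differ beyond the spread between libraries, whereas every AAV-GFP value of Adcyap1 lay above every value of Nr5a1 and of Bdnf. In whole regions such as these, fewer cells of a type and less RNA per cell cannot be told apart.

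The first comparison asked whether the VMH genes differed in mice labelled Obese 10 weeks after AAV-Cre. Tests were run with limma on log2(signal + 1) across 13506 entries, and a call is a Benjamini-Hochberg adjusted p (FDR) under 0.1. No member was called, against 0.555% of all entries, and 2 of 4 had an unadjusted p under 0.05 by limma, against 9.88%. By edgeR's quasi-likelihood and likelihood ratio tests and by DESeq2 on the recovered reads, also no member was called, in this and in the 3 other comparisons between groups. DESeq2 gave no p for Nr5a1 in any of these, and no adjusted p for Bdnf over all AAV-Cre mice, so no call could be made there. Bdnf had the largest difference, with a mean signal of 2.50 ± 4.13 against 14.4 ± 0.846 in AAV-GFP mice (SD, n = 3 each), a log2 fold change (FC) of -2.83 (SE 0.83, limma FDR = 0.185). All 3 values were below all AAV-GFP values, as in 7.27% of entries, and the exact permutation p was 0.1, the smallest that 3 against 3 allows. Adcyap1 had a log2 FC of -0.99 (SE 0.43, limma FDR = 0.432), with 2 of 3 libraries below every AAV-GFP library and the third within their range. Nr5a1 had a log2 FC of -1.58 (SE 1.35, FDR = 0.748) and Fezf1 of -1.05 (SE 1.20, FDR = 0.827). The median log2 FC of the 4 members was -1.31, beside -0.04 for all entries.

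These values turn on which library is in the subset. Without library 2 labelled Obese, which leaves the libraries with leukocyte markers, limma called Bdnf (log2 FC -3.79, FDR = 0.00487) and Adcyap1 (log2 FC -1.40, FDR = 0.0625), but it then called 5.27% of all entries too. With libraries 1 and 3 left out instead, the log2 FC of the remaining library was 2.12 for Nr5a1, 2.01 for Fezf1, -0.16 for Adcyap1 and -0.89 for Bdnf, and none was called. That lone library is assumed to vary like the other groups. The part of leukocyte and microglial RNA in the low values of Bdnf and Adcyap1 was not tested.

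In mice labelled Non-obese, the same question gave smaller differences, and again no member was called (0.0148% of all entries were) and none had an unadjusted p under 0.05 (2.27% had). This comparison shares its AAV-GFP libraries with the one above. The log2 FC was -1.02 for Bdnf (SE 0.83), -0.72 for Nr5a1 (SE 1.35), 0.26 for Adcyap1 (SE 0.43) and 0.24 for Fezf1 (SE 1.20), each with an FDR of 0.999 by limma. Bdnf, at 7.94 ± 5.17 (SD, n = 3), was below AAV-GFP in all 3 libraries (exact permutation p = 0.1), a pattern shared by 5.15% of entries. For Nr5a1 and Fezf1 the 95% intervals of the log2 FC ran from -3.51 to 2.06 and from -2.24 to 2.71, so differences of several fold in either direction were not detectable with 3 mice per group.

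Taking all 6 AAV-Cre mice against the 3 AAV-GFP mice, no member was called by limma, against 0.0444% of entries, and 1 had an unadjusted p under 0.05, against 4.31%. Bdnf had a mean signal of 5.22 ± 5.14 (SD, n = 6) against 14.4 ± 0.846 (SD, n = 3), so the AAV-GFP mean was 2.76-fold higher. It was lower in 6 of 6 AAV-Cre libraries than in any control, a separation found in 1.08% of entries. The 2-sided exact permutation p was 0.0238, the smallest that this test allows for 6 against 3. The limma log2 FC, which weights both subsets equally, was -1.93 (SE 0.72, FDR = 0.991). With libraries 1 and 3 labelled Obese left out it was -0.96, in a fit with 1 library in that subset. Adcyap1 had the same mean in both sets, 49.6 ± 43.1 in AAV-Cre mice and 49.6 ± 5.74 in AAV-GFP mice, with a spread far wider in the former. Its median was 35.2 in AAV-Cre mice and 50.1 in AAV-GFP mice, with 3 of 6 AAV-Cre libraries below every control and 2 above. The limma log2 FC of Adcyap1 was -0.36 (SE 0.37, FDR = 0.991). Nr5a1 (log2 FC -1.15, SE 1.17) and Fezf1 (log2 FC -0.41, SE 1.04) had an FDR of 0.991 and 0.992 by limma.

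Between the subsets, no member was called (0.948% of entries were), and 2 had an unadjusted p under 0.05 by limma, against 11.4%. Adcyap1 was higher in mice labelled Non-obese by a log2 FC of 1.25 (SE 0.43, limma FDR = 0.231) and Bdnf by 1.81 (SE 0.83, limma FDR = 0.410). Nr5a1 and Fezf1 differed by 0.86 (SE 1.35, FDR = 0.858) and 1.28 (SE 1.20, FDR = 0.733). Adcyap1 was called without library 3 labelled Non-obese (log2 FC 1.82, FDR = 0.0787), and both Adcyap1 (1.67, FDR = 0.0189) and Bdnf (2.77, FDR = 0.0447) without library 2 labelled Obese. Of all entries, 0.453% and 6.72% were called in these fits. With libraries 1 and 3 labelled Obese left out, the difference of Bdnf was -0.13 and that of Adcyap1 was 0.43.

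**Figure D2:**
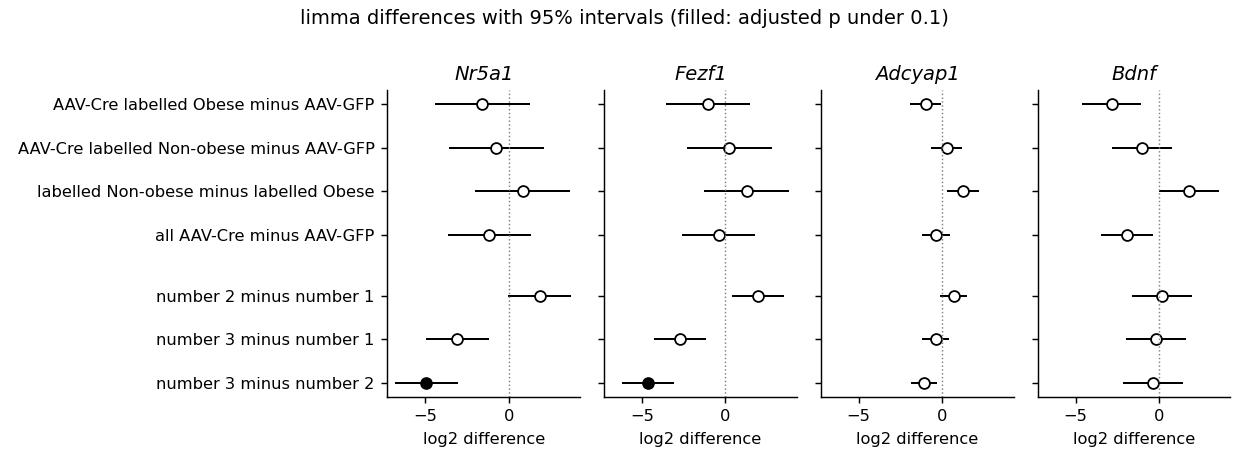
Points give the limma difference in log2(signal + 1) of each member for the 4 comparisons between groups and the 3 between replicate numbers, with 95% intervals, and filled points have an FDR under 0.1. No point of a group comparison is filled, and the only filled points are Nr5a1 and Fezf1 between libraries numbered 3 and 2.

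The members were next compared by replicate number, since all libraries numbered 3 lacked Nr5a1. This test was chosen with those 0 values known, and the labels give the number no meaning, so its p-values describe the pattern and are not independent evidence of it. With group and number in a limma fit, Fezf1 (F = 20.1, FDR = 0.00301) and Nr5a1 (F = 15.5, FDR = 0.0154) were called, 2 of 4 members against 0.437% of all entries. Adcyap1 (F = 4.54, FDR = 0.595) and Bdnf (F = 0.0956, FDR = 0.987) were not. Being at 0 reads in all 3 libraries numbered 3 was true of 15 of 13506 entries (0.111%), a share from which genes with fewer than 50 reads in total are missing.

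Nr5a1 averaged 32.1 ± 15.0 in the libraries numbered 2 (SD, n = 3) and was at 0 in those numbered 3, which is at least 50.1-fold lower when the floor of 3 reads per library is used. Against the libraries numbered 1, at 16.8 ± 17.6 with library 1 labelled Obese at 0, it was at least 26.2-fold lower. Fezf1 averaged 20.8 ± 24.4, 47.2 ± 7.04 and 1.36 ± 1.97 in the libraries numbered 1, 2 and 3 (SD, n = 3 each). The limma log2 difference between numbers 3 and 2 was -4.93 for Nr5a1 (SE 0.89, FDR = 0.00368) and -4.66 for Fezf1 (SE 0.74, FDR = 0.000599), where 0.718% of entries were called. Between numbers 3 and 1 it was -3.07 (FDR = 0.721) and -2.72 (FDR = 0.596), and was not called. Over number as a whole, neither was called by edgeR's quasi-likelihood test (FDR = 0.139 for Nr5a1 and 0.150 for Fezf1), by DESeq2 (0.391 and 0.246) or by limma without a variance trend (0.838 and 0.822). The likelihood ratio test of edgeR did call both (FDR = 1.09e-06 for Nr5a1 and 0.000261 for Fezf1), with 0.652% of entries called. Between numbers 3 and 1 that test called Nr5a1 (FDR = 0.000146) but not Fezf1 (FDR = 0.151), with 0.104% of entries called. The pair of numbers 3 and 2 was still called by edgeR's quasi-likelihood test (0.0407 and 0.0529), its likelihood ratio test (1.31e-07 and 6.02e-05) and DESeq2 (0.0398 and 0.0211). It was not called by limma without a variance trend (0.651 and 0.630). With libraries 1 and 3 labelled Obese left out, both members were called over number as a whole and in number 3 against both other numbers. That alternative was chosen after seeing the data and leaves out the sole library outside number 3 that had no Nr5a1 read, so the calls it gains against number 1 add no support.

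Other genes of the VMH were examined from a list of 15, of which 14 had an entry and Vgll2 had none. Over replicate number, limma called 3 of 14, against 0.437% of all entries, and Foxp2 among them went the other way from the members. Number was tested because of the 0 values of Nr5a1, and the list was chosen with earlier results of these data known. The share is therefore a description and no separate support, and the same limit holds for the other lists compared by number. Nptx2, a neuronal pentraxin that clusters AMPA receptors, had a signal of 33.2, 66.6 and 4.86 in AAV-GFP libraries 1, 2 and 3, 8.55, 34.0 and 7.67 in those labelled Obese, and 30.1, 41.1 and 4.27 in those labelled Non-obese (FDR = 0.0148). Its 4 lowest values were in the libraries that had no Nr5a1 read. Amigo2, an adhesion molecule, was at 121, 193 and 83.9, then 102, 153 and 98.0, then 108, 194 and 72.8 in the same order (FDR = 0.0292), highest in number 2 of each group and lowest in number 3 of each.

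Foxp2, a forkhead transcription factor, went the other way (FDR = 0.0569). Its signal was 5.24, 12.3 and 59.4 in AAV-GFP libraries 1, 2 and 3, 41.6, 20.0 and 46.0 in those labelled Obese, and 15.7, 8.38 and 71.7 in those labelled Non-obese. Its 4 highest values were in the libraries that had no Nr5a1 read. Between numbers 3 and 2, limma called the receptor gene Gpr149 (log2 difference -2.99), Nptx2 (-2.85) and Amigo2 (-1.08) lower and Foxp2 (2.10) higher. These were 4 of 14, against 0.718% of all entries. The VMH genes Slc17a6, which encodes the vesicular glutamate transporter VGLUT2, Dlk1, Esr1 and Cdh4 were not among those called by number.

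**Figure D3:**
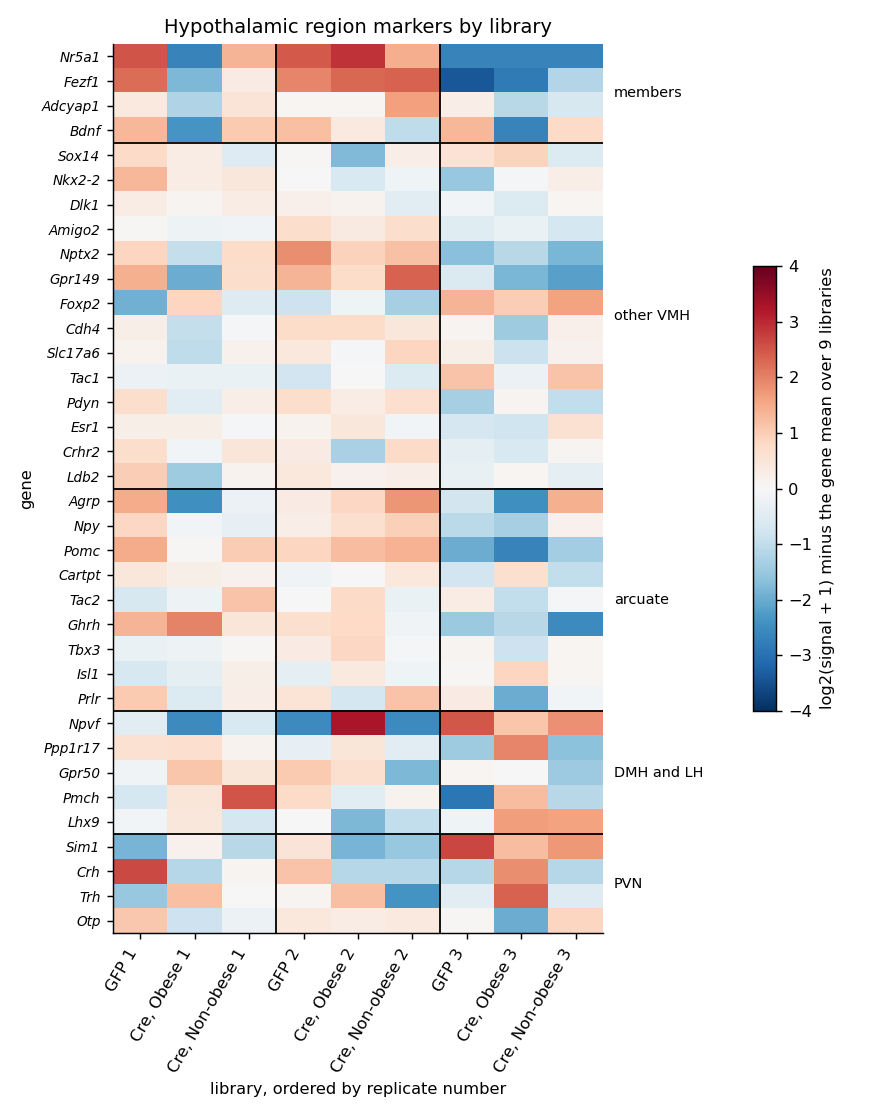
Each row is a gene and each column a library, ordered by replicate number, and colour gives log2(signal + 1) minus the mean of that gene over the 9 libraries. Nr5a1, Fezf1, Nptx2 and Pomc are below their means in all 3 libraries numbered 3, and Foxp2 and Sim1 are above theirs.

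Some markers of the neighbouring arcuate nucleus also differed between numbers. Of 9 arcuate genes with an entry, limma called 1 over number, against 0.437% of all entries. It was Pomc (FDR = 4.45e-06), the gene of the precursor of melanocortin peptides. Its signal was 8.16, 4.65 and 12.8 in the libraries numbered 3 of the AAV-GFP, labelled Obese and labelled Non-obese groups, and between 36.0 and 100 in the 6 others. Pomc was lower in number 3 than in number 2 (log2 difference -3.16, FDR = 3.64e-06) and number 1 (-2.86, FDR = 7.25e-05), and the feeding peptide gene Npy was lower than in number 2 (-1.36, FDR = 0.0714). Between numbers 3 and 2, 0.718% of all entries were called, and between numbers 3 and 1, 0.0148%. Of 5 dorsomedial and lateral hypothalamic genes and 4 of the paraventricular nucleus, none was called by number. Sim1, a transcription factor of the paraventricular nucleus, had a signal of 22.3, 7.67 and 11.1 in the libraries numbered 3 and between 0 and 4.21 in the others. It is a gene named after its values were seen, and its list did not move as a whole. Over the 9 libraries, Pearson's r with Nr5a1 was -0.812 for Sim1 and -0.353 for Trh, but 0.518 for Otp of the same list. Whether capture position accounts for the pattern was not tested, since the labels give no position.

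Between groups, no gene of the VMH list was called against AAV-GFP. Limma called none of its 14 genes in mice labelled Obese against AAV-GFP (median log2 FC -0.45, beside -0.04 for all entries), none in mice labelled Non-obese (-0.08, beside -0.02) and none over all AAV-Cre mice (-0.27, beside -0.03). At an unadjusted p under 0.05, limma had 2, 0 and 0 of the 14, against 9.88%, 2.27% and 4.31% of all entries. Between the subsets it called Slc17a6, higher in mice labelled Non-obese by a log2 FC of 1.06 (SE 0.24, FDR = 0.0328). The signal of Slc17a6 was 76.0 and 84.3 in libraries 1 and 3 labelled Obese and between 146 and 285 in the other 7, so the low values were those of the libraries with leukocyte markers, whose part in the result was not tested.

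Genes that act with the members were taken from lists of PACAP signalling, neurotrophin signalling, and SF-1 partners and relatives. Of 8 PACAP genes with an entry, including the receptor gene Adcyap1r1 and the prohormone convertase genes Pcsk1 and Pcsk2, limma called none in any comparison. Adcyap1r1 ranged from 126 to 202 over the 9 libraries, less than the range of its ligand gene (17.3 to 131). Of 8 neurotrophin genes, limma also called none. Ntrk2, the gene of the Bdnf receptor TrkB, lay between 555 and 737 in all libraries, whereas Bdnf itself was between 0 and 15.0. None of the 4 SF-1 genes was called, and the coactivator genes Ncoa1 and Ncoa2 lay between 103 and 164. At an unadjusted p under 0.05, limma had 1 neurotrophin gene lower and no PACAP or SF-1 gene in mice labelled Obese against AAV-GFP, and none of these in mice labelled Non-obese or over all AAV-Cre mice. The shares of all entries in these comparisons were 9.88%, 2.27% and 4.31%.

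The ratio of Nr5a1 to Fezf1 reads was examined library by library. Nr5a1 values form separate sets, so no p is given for its relations, although they count among the 6 relations whose p-values were adjusted together. The share of Nr5a1 among the reads of Nr5a1 and Fezf1 was 42.1% (95% exact binomial interval 36.7 to 47.6) and 46.3% (41.2 to 51.5) in AAV-GFP libraries 1 and 2, and 48.1% (43.2 to 53.0) in library 2 labelled Obese. It was 55.8% (47.6 to 63.7) in library 1 and 23.6% (18.6 to 29.2) in library 2 labelled Non-obese, so it varied between libraries by more than counting error. In library 3 labelled Non-obese it was 0 of 17 reads, which allows a share of up to 19.5%, and in library 1 labelled Obese 0 of 9 reads, which allows up to 33.6%. Intervals for single libraries carry no difference between groups.

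Adcyap1 and Bdnf were weakly related over the 9 libraries, with r = 0.456 (exact permutation p = 0.221, 0.265 adjusted over 6 relations) and rho = 0.467 (exact permutation p = 0.213, adjusted 0.319). Without the 2 libraries farthest from the median of Adcyap1, r was 0.822, and within groups it was 0.0699. The strength of the relation therefore depended on which libraries were included and on whether group means were taken out. Library 2 labelled Non-obese had the highest Adcyap1 and a low Bdnf, and without it r was 0.887. Fezf1 was related to Adcyap1 with r = 0.627 (exact permutation p = 0.0716, adjusted 0.149), rho = 0.567 (exact permutation p = 0.121), 0.772 without 2 libraries and 0.628 within groups. For Fezf1 and Bdnf, r was 0.350 (exact permutation p = 0.344, adjusted 0.344), rho was 0.0833 (exact permutation p = 0.843), 0.426 without 2 libraries and 0.298 within groups.

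**Figure D4:**
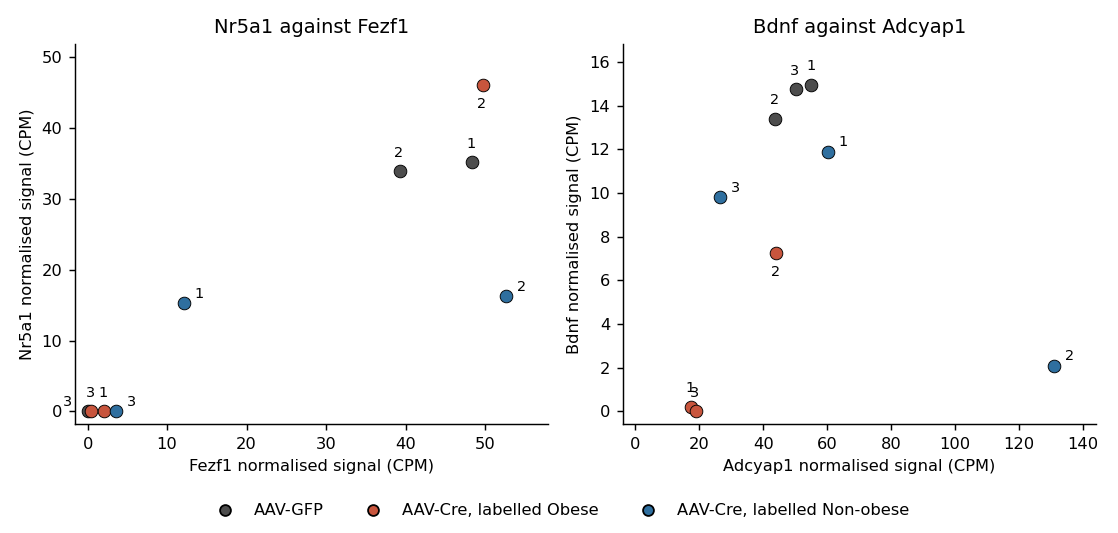
Each point is a library, with the signal of Nr5a1 against Fezf1 (left) and of Bdnf against Adcyap1 (right) on linear CPM axes, labelled by replicate number and coloured by group. At left, 4 libraries lie at 0 for Nr5a1 and under 3.63 or at it for Fezf1, and at right the 3 AAV-GFP libraries lie above all AAV-Cre libraries for Bdnf.

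The entries most like each member in log2(signal + 1) over the 9 libraries were listed by Pearson's r among 11784 entries with a symbol and a mean signal of at least 5, as a description. Those most like Nr5a1 were Nptx2 (0.947), Socs5 (0.941), Fezf1 (0.941), Srrm4 (0.940) and Myh7 (0.931). For Fezf1 they were Socs5 (0.976), Lmo3 (0.957), Cdh13 (0.951), Srrm4 (0.944) and Nr5a1 (0.941), so each of the pair stood among the 5 entries most like the other, with Socs5 and Srrm4 common to both. For Adcyap1 they were Reps2 (0.951), Cggbp1 (0.939), the calcium channel gene Cacna1d (0.930), Syt5 (0.928) and the sodium channel gene Scn8a (0.927). For Bdnf they were Hmces (0.950), Pqbp1 (0.938), Cnih2 (0.936), Fam102b (0.935) and Bzw1 (0.929). Neither Adcyap1 nor Bdnf had another member among its 5. Within the VMH list, likeness to Nr5a1 ranked Gpr149 (0.887) at 17 of 11784, and Foxp2 (-0.882) at 11775.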

How the data were processed

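RNA of laser-captured hypothalamic regions from 9 mice was sequenced as 50-base single-end reads. Per the submitters' processing notes, CASAVA 1.7, TopHat2 2.0.11, HTSeq, edgeR, limma and GRCm38 were used, and a strand setting is not given in the sources used here. The authors deposited a normalised signal, CPM on library sizes that edgeR's TMM method had scaled. Of its values 100% were whole multiples of a read (tolerance 0.05 reads), so reads were recovered. The tests had been planned for plain CPM and were kept. Libraries held 3929672 to 5766994 reads. Here limma 3.58.1, in R 4.3.3, was run on log2(signal + 1) with a variance trend and all 3 groups in a fit. It took the 13506 of 13588 entries that reached a signal of 1 in 3 or more libraries. A pseudocount of 1 understates the change of low genes. Replicate number was tested with group as a further term. Single values were compared by 2-sided exact permutation tests. edgeR 4.0.16 and DESeq2 1.42.0 on recovered reads were alternatives, with other pseudocounts, filters, scalings and each library left out. Positions and windows come from GENCODE M21 and promoters from RefSeq. Replicates within groups differed by more than sampling noise, so each was counted. Same-numbered mice are different animals, and the correlation of their deviations from group means was between -0.0199 and 0.0897 over 9 pairs, so numbers were not treated as pairs. The members and gene lists were chosen with earlier results of these data known. The text names the members, list genes called at an FDR under 0.1 or else those of highest signal, and the 5 entries most like each member. The procedures were tested on simulated data. Snord116 was not analysed here, and some list genes are not reported here and stay out of the counts and medians of their lists.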

Additional observations from a re-analysis of the deposited data

How the results depend on the processing

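With 3 mice a group, and values of 0 reads in 4 libraries for Nr5a1, few differences were within reach. Members called (main 0) numbered 2 in mice labelled Obese against AAV-GFP without library 2 labelled Obese (range 0 to 2 when leaving out each library), and between the subsets 0 to 2, with 1 under the replicate number as a block (Adcyap1, FDR = 0.0869). The block called no other member, and the calls over all entries were 200 against 75 in mice labelled Obese and 271 against 128 between subsets. Over replicate number (main 2), 2 were called by edgeR's likelihood ratio test and 1 with a pseudocount of 0.1. It was 0 without a variance trend, by edgeR's quasi-likelihood test and by DESeq2, and 1 to 3 when leaving out each library. The relation of Adcyap1 and Bdnf (r = 0.456) ranged from 0.239 to 0.887 when leaving out each library.

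Several log2 FCs of members that were not called turned direction. In mice labelled Non-obese, Fezf1 (0.24) was -0.16 with a pseudocount of 5, -0.36 by both edgeR tests and -0.35 by DESeq2, and when leaving out each library Nr5a1 ranged from -2.44 to 0.63, Fezf1 from -1.59 to 1.22 and Adcyap1 from -0.30 to 0.83. Between subsets, Nr5a1 (0.86) was -0.55 by both edgeR tests and -0.56 by DESeq2, and -0.069 to 2.71 when leaving out each library. Over all AAV-Cre mice, Fezf1 (-0.41) was 0.33 with a pseudocount of 0.1 and -2.23 to 0.58 when leaving out each library. With libraries 1 and 3 labelled Obese left out, an alternative chosen after seeing the data, Nr5a1 and Fezf1 were 2.12 and 2.01 in mice labelled Obese, -2.85 and -1.78 between subsets and 0.70 and 1.12 over all AAV-Cre mice, Bdnf was -0.13 between subsets and Adcyap1 0.051 over all AAV-Cre mice. The causes were not tested. For mice labelled Obese (main 75 entries called, or 0.555%), calls over all entries were 5 without a variance trend to 275 by DESeq2 among fits with all libraries, and the most, 5.27% of entries, without library 2 labelled Obese. They were 1 to 6 for mice labelled Non-obese (main 2), 2 without library 1 labelled Obese to 906 without library 2 labelled Obese between subsets (main 128), 2 to 77 over all AAV-Cre mice (main 6), and 0 without a variance trend to 221 by DESeq2 over replicate number (main 59).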

Other observations

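The same regions differed in genes of glia. In mice labelled Obese against AAV-GFP, limma called 2 of 5 astrocyte genes higher, where 0.555% of all entries were called in either direction. They were Gfap, an intermediate filament that rises in reactive astrocytes, with a log2 FC of 3.03 (SE 0.55, FDR = 0.0119), and the water channel gene Aqp4 with 1.19 (SE 0.27, FDR = 0.0559). The signal of Gfap was 369 and 640 in libraries 1 and 3 labelled Obese, 130 in library 2, and between 10.1 and 83.0 in the other 6 libraries. The glutamate transporter genes Slc1a2 and Slc1a3 and the enzyme gene Aldoc were not called. Between the subsets, limma called 2 of 5 astrocyte genes lower in mice labelled Non-obese, where 0.948% of all entries were called in either direction. It also called the microglial receptor gene Csf1r lower in them (log2 FC -1.48, FDR = 0.0747), 1 of 5 genes of its list. Over replicate number, the myelin gene Mag was called (FDR = 0.0532), and between numbers 3 and 2 the tubulin gene Tubb3 was higher (log2 difference 0.79, FDR = 0.0389).

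Of hypothalamic genes outside the VMH, limma called the arcuate gene Prlr, the prolactin receptor, lower in mice labelled Obese than in AAV-GFP mice (log2 FC -1.73, SE 0.36, FDR = 0.0332) and higher in mice labelled Non-obese than in those labelled Obese (1.52, FDR = 0.0569). Prlr was 1 of 9 genes of its list in each comparison, against 0.555% and 0.948% of all entries. Trh, encoding thyrotropin-releasing hormone, was lower in mice labelled Non-obese than in those labelled Obese (-2.57, SE 0.64, FDR = 0.0699). It was 1 of 4 genes of the paraventricular list, against 0.948% of all entries. Limma called none of 4 tanycyte genes, 5 endothelial genes or the 2 leukocyte genes that passed the filter in any comparison. In mice labelled Obese against AAV-GFP, the unadjusted p was under 0.05 for both of the latter, and for 1 endothelial and no tanycyte gene, against 9.88% of all entries.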
